A study of Mus musculus with 2 samples.

Results

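Collagens, laminins, integrins and fibronectin make up much of the extracellular matrix and its cell surface receptors, and their genes were followed in mouse hippocampus. The members are the probes whose annotated symbol begins as a collagen chain, a laminin chain or an integrin subunit, together with Fn1. The pattern found 77 probes of 76 genes among 23473 probes and 16446 named genes. Both channels of both arrays lay above background for 67 of these probes, which belong to 66 genes, out of 13633 measured named genes. The 76 genes are 35 collagens (33 measured), 9 laminins (8 measured), 16 integrin alpha subunits (11 measured), 8 integrin beta subunits (6 measured), Fn1, and 7 genes with other functions whose symbols fit the pattern (all 7 measured). The 10 genes that were not measured are Col11a1, Col23a1, Lama2, Itga1, Itga10, Itga2, Itga2b, Itgal, Itgb2l and Itgb6.

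The mice were AtrxdE2 given TMPyP4, AtrxdE2 without treatment, and wild type. Both mutant groups carry the AtrxΔE2 allele of Atrx, which encodes a chromatin remodelling protein, and TMPyP4 is a porphyrin that binds G-quadruplex DNA. TMPyP4 was injected into the peritoneum at 30 mg/kg, 2 times a week, from postnatal day 30 to day 90. Each RNA was a pool of 5 mice, and each mutant pool was set against wild type on 1 two-colour array. The mutant pool was labelled with Cy3 and wild type with Cy5 on both arrays, so dye and genotype cannot be told apart in the ratios over wild type. The labels read here do not give the sex, the age at sampling or any vehicle injection of the untreated groups. Since every group is a single array, the values carry no replicate error and no p-value, and members were counted past folds of 1.5 and 2.

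Collagens are triple helices of alpha chains. Fibril-forming types bear tension in connective tissue, type IV forms the sheet of basement membranes together with laminin trimers, and type VI forms beaded filaments next to basement membranes. In brain most of this matrix lies in the meninges and around blood vessels. Integrins are pairs of an alpha and a beta subunit that span the cell membrane and bind fibronectin, laminin or collagen outside and the actin cytoskeleton inside.

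The median signal above blank spots was 79.0 for AtrxdE2+TMPyP4 and 36.01 for wild type on one array, and 64.6 for AtrxdE2 and 42.2 for wild type on the other. Atrx itself gave a signal of 71.5 in AtrxdE2+TMPyP4 and 54.6 in wild type on its array, and on the other array of 19.1 in AtrxdE2 and 47.4 in wild type. After normalization its log2 ratio over wild type was -0.36 in AtrxdE2+TMPyP4 and -0.68 in AtrxdE2. Where this probe lies with respect to the deletion was not analysed here. Over all measured probes, the SD of the log2 difference between arrays was 0.41 between the mutant pools (Cy3) and 0.27 between the wild-type channels (Cy5). The labels do not say whether both arrays received the same wild-type RNA, so the difference of the wild-type channels (AtrxdE2+TMPyP4 array minus AtrxdE2 array) is printed beside the main members as the only repeat measurement at hand. All 13 hippocampal neuron markers on the array were measured.

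In AtrxdE2 hippocampus Fn1, Col1a2 and Col3a1 stood highest among the members, and most collagen genes lay slightly above wild type. Of 66 measured members, 3 were at least 1.5-fold higher than in wild type (4.55%), against 0.44% of all measured named genes. These were Fn1, Col1a2 and Col3a1. No member was at least 1.5-fold lower, against 0.66% of all genes, and none was past 2-fold in either direction, against 0.022% of all genes higher and 0.00734% lower. Among collagens 25 of 33 had a ratio above 0 and the median log2 ratio was 0.09. Laminins had 7 of 8 above 0 and a median of 0.08. Against the mean of both wild-type channels, collagens had 26 of 33 above 0 and a median of 0.12, but laminins only 4 of 8 and a median of 0.0052. Integrin alpha subunits had a median of -0.02 and integrin beta subunits of 0.00, and all measured named genes of -0.0029. In bulk tissue, more cells of a type and more RNA per cell cannot be told apart.

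In AtrxdE2+TMPyP4 hippocampus the same fibrillar pair stood highest, while Col6a1 stood far below every other member. Of 66 members, 2 were at least 1.5-fold higher than in wild type, Col1a2 and Col3a1 (3.03%), against 0.902% of all measured named genes. Col6a1 alone was at least 1.5-fold lower (1.52% of the members), against 0.462% of all genes. Col6a1 was also the single member past 2-fold on the lower side, against 0.0293% of all genes, and no member was past 2-fold on the higher side, against 0.161%. Collagens had 17 of 33 ratios above 0 and a median of 0.01, laminins 4 of 8 and a median of -0.0025. Against the mean of both wild-type channels, 12 of 33 collagens were above 0. The medians were -0.01 for integrin alpha subunits, -0.04 for integrin beta subunits and 0.0095 for all measured named genes. With plain median centring in place of loess the median of all genes on this array was 0.18, and the collagen median was -0.12.

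**Figure D1:**
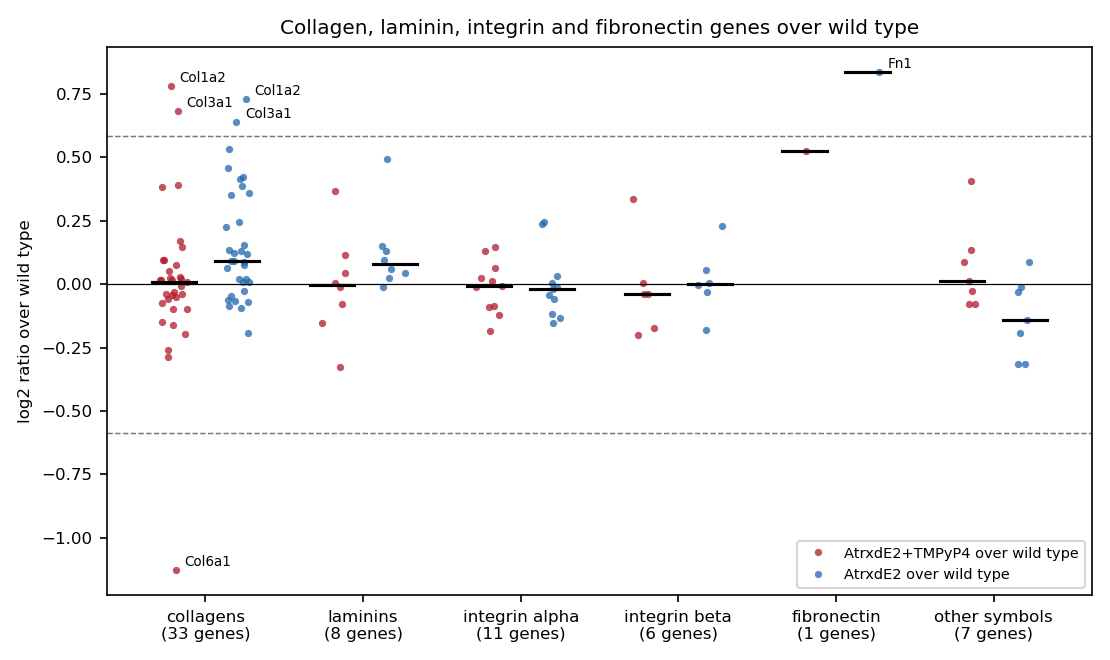
Log2 ratio over wild type (vertical axis) of each measured gene in AtrxdE2+TMPyP4 (red, left in each pair) and AtrxdE2 (blue, right), by class; bars are medians and dashed lines mark 1.5-fold. Col1a2 and Col3a1 lie above the upper line in both mutant pools, Fn1 in AtrxdE2, and Col6a1 at -1.13 lies below the lower line in AtrxdE2+TMPyP4.

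Treated was set against untreated AtrxdE2 by subtracting their log2 ratios, which gave 4 collagens at least 1.5-fold lower with TMPyP4. They were Col6a1, Col16a1, Col4a2 and Col5a1 (6.06% of the members), against 1.14% of all measured named genes. No member was at least 1.5-fold higher, against 2.1% of all genes. At 2-fold, Col6a1 was the single member on the lower side, against 0.103% of all genes, and none was on the higher side, against 0.213%. The median difference was -0.07 for collagens, -0.13 for laminins, -0.02 for integrin alpha subunits, -0.0015 for integrin beta subunits and 0.02 for all genes.

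In the authors' value table, which damps dim genes less, more genes pass these folds everywhere. In AtrxdE2+TMPyP4 over wild type, 6 members were at least 1.5-fold higher (9.09% of members, against 5.22% of all genes) and 2 lower (3.03% against 3.06%). Past 2-fold 2 were higher (3.03% against 1.53%) and 1 lower (1.52% against 0.499%). In AtrxdE2 over wild type, 8 were at least 1.5-fold higher (12.1% of members, against 4.11% of all genes) and 2 lower (3.03% against 5.16%). Past 2-fold 2 were higher (3.03% against 0.77%) and 1 lower (1.52% against 0.792%). In AtrxdE2+TMPyP4 minus AtrxdE2, 8 were at least 1.5-fold higher (12.1% of members, against 10.2% of all genes) and 11 lower (16.7% against 6.65%). Past 2-fold 3 were higher (4.55% against 3.01%) and 5 lower (7.58% against 1.58%). Of these counts, the 8 higher in the last contrast and the 2 lower in AtrxdE2+TMPyP4 were near the share of all genes, and the 2 lower in AtrxdE2 were under it. Counts of 1 to 3 members past 2-fold rest on too few genes to be set apart from those shares. The 5 lower by 2-fold, named after their values were seen, were Col6a1, Col25a1, Col5a3, Col5a1 and Col16a1. Col25a1 and Col5a3 were dim, and their differences were -0.23 and -0.29 with normexp and loess. With the local background the Col5a3 difference was 0.05.

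Upstream windows of 4 collagen genes are shown here: Col1a2 and Col3a1, which had the highest ratios in AtrxdE2+TMPyP4, and the type VI genes Col6a1 and Col6a2, both lower in treated than in untreated AtrxdE2. They were searched for G-quadruplex motifs, the DNA form that TMPyP4 binds. Each window runs from 250 bases before to 50 bases after the RefSeq transcript start farthest upstream, on assembly GRCm38.p6, and is written 5′ to 3′ on the gene's strand. Capitals mark bases inside a G-quadruplex motif on either strand, that is 4 runs of at least 3 G, each separated from the next by 1 to 7 bases. The spacer bases may be any letter, G included, so a long unbroken run of G also counts. Col1a2 lies at chr6:4505368-4505667 on the + strand and Col3a1 at chr1:45311288-45311587 on the + strand. Col6a1 lies at chr10:76725995-76726294 on the - strand and Col6a2 at chr10:76623581-76623880 on the - strand.
Col1a2: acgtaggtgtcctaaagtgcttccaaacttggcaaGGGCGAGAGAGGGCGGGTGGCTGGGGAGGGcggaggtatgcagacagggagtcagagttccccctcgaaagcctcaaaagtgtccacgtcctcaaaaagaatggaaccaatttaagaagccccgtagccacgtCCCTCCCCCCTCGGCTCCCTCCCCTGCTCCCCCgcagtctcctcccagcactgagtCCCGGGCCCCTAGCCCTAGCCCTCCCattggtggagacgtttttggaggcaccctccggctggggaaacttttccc
Col3a1: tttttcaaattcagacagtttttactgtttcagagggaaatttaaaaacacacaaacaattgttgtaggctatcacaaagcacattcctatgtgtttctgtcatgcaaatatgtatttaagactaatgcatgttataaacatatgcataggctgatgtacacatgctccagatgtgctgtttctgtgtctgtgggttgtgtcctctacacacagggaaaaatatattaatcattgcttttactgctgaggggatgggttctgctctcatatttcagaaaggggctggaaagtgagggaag
Col6a1: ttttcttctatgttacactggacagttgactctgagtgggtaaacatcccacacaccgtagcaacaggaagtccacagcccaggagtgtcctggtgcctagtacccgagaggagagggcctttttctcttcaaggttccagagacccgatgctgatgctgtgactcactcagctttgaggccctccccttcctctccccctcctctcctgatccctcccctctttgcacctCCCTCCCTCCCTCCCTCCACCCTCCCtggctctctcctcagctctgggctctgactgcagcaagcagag
Col6a2: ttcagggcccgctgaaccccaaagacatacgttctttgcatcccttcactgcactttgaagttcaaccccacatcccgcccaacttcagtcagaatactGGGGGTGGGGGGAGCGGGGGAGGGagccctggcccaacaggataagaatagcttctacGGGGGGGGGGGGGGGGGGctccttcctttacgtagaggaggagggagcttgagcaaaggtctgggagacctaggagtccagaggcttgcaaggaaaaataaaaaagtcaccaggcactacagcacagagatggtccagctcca
The motif covered 89 bases of the Col1a2 window, on both strands, and none of the Col3a1 window. It covered 26 bases of the Col6a1 window, on the strand opposite to the gene, and 42 bases of the Col6a2 window, on the gene's own strand. The second marked stretch of Col6a2 is an unbroken run of G, without other bases between runs. Col6a2 was short of 1.5-fold lower with TMPyP4, at -0.55. Of the other collagens past that fold, the motif covered 33 bases of the Col16a1 window, 81 of the Col5a1 window and none of the Col4a2 window. The window of Col6a3, the third type VI gene, had none either.

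RefSeq windows were found for 50 of the 69 collagen, laminin, integrin and Fn1 genes. Fn1, Col1a1, Col9a3 and Lamc1 are among those without a window, so the shares and medians below leave them out. The G-quadruplex motif was present in 17 of these 50 windows (34.0%), against 4885 of 27025 windows of all genes (18.1%). Collagens had it in 12 of 28 windows (42.9%), laminins in 1 of 4, integrin alpha subunits in 3 of 13 and integrin beta subunits in 1 of 5. The windows of the 50 genes had a median GC content of 58.7%, against 52.7% for all genes. The CCAAT box, searched on both strands as the letters CCAAT, was in 11 of the 50 windows (22.0%) and in 38.0% of all windows. Among measured members, the 16 genes with the G-quadruplex motif had a median log2 ratio over wild type of -0.02 in AtrxdE2+TMPyP4 and 0.18 in AtrxdE2. The 25 without it had medians of 0.01 in both. Col6a1, with -1.13, and Col1a2, with 0.78, are both among the genes with the motif, so the motif group held the lowest and the highest ratio in AtrxdE2+TMPyP4. A match describes letters in this window and no measured binding.

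The fibril-forming genes Col1a2 and Col3a1, whose products are the second chain of type I collagen and the chain of type III collagen, were high in both mutant pools. Col1a2 gave a signal of 425 in AtrxdE2+TMPyP4 and 95.5 in wild type on its array, and on the other array of 320.5 in AtrxdE2 and 107 in wild type. Its log2 ratio was 0.78 in AtrxdE2+TMPyP4 and 0.73 in AtrxdE2, beside an SD of 0.22 and 0.23 among the 500 genes nearest in signal. Both mutant signals lay above both wild-type signals before normalization, where Cy3 was the brighter channel in median on both arrays. Itgb5, whose ratios were near wild type, showed the same order, at 540 and 480 against 249 and 305. Col3a1 gave 173 in AtrxdE2+TMPyP4 and 35.1 in wild type, and 129 in AtrxdE2 and 38.0 in wild type. Its log2 ratio was 0.68 in AtrxdE2+TMPyP4 and 0.64 in AtrxdE2 (SD of genes nearest in signal 0.19 and 0.18). The wild-type channels differed by 0.03 for Col1a2 and 0.05 for Col3a1, and the treated pool differed from the untreated one by 0.05 and 0.04. In the authors' value table, made with no offset and no loess, Col3a1 was at 1.13 and 1.12 and Col1a2 at 0.98 and 0.94 in AtrxdE2+TMPyP4 and AtrxdE2. With the local background, Col3a1 fell short of 1.5-fold in both pools, at 0.31 in AtrxdE2+TMPyP4 and 0.40 in AtrxdE2. Col1a2 then fell short in AtrxdE2+TMPyP4 (0.54) and not in AtrxdE2 (0.62).

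Col1a1, which encodes the partner chain of Col1a2 in type I collagen, lay closer to wild type than Col1a2 in both pools. Its signal was 26.3 in AtrxdE2+TMPyP4 and 8.34 in wild type, and on the other array 83.4 in AtrxdE2 and 31.1 in wild type. After normalization Col1a1 stood at a log2 ratio of 0.10 in AtrxdE2+TMPyP4 and 0.39 in AtrxdE2. Both channels of the treated array were dimmer than both channels of the other, and the wild-type channels differed by -0.38. The ratio in AtrxdE2+TMPyP4 was below 0 with the local background, with median centring and against the mean of both wild-type channels (-0.13), and 0.49 in the authors' value table. Col1a1 in the treated pool therefore has no settled direction. In AtrxdE2 it was above 0 in every setting, and past 1.5-fold with plain subtraction (0.82), by the authors' values (0.77) and against the mean of both wild-type channels (0.62). The difference between the pools was -0.29, and -0.85 with the Cy3 channels compared directly.

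Among the other fibril-forming genes, Col5a1, whose product starts fibril assembly, was one of the 4 with a lower value under treatment. It gave a signal of 106 in AtrxdE2+TMPyP4 and 70.3 in wild type, and of 182 in AtrxdE2 and 83.5 in wild type. Its log2 ratio was -0.29 in AtrxdE2+TMPyP4 and 0.35 in AtrxdE2, a difference of -0.64 (SD of genes nearest in signal 0.30), and the wild-type channels differed by -0.03. The Col5a1 difference lay between -1.04 and -0.53 over the settings and was short of 1.5-fold with the local background. The Cy3 signal of Col5a1 was thus lower on the treated array, while the wild-type channels were near each other. Its partner Col5a2 had 0.05 in AtrxdE2+TMPyP4 and 0.25 in AtrxdE2, and Col5a3 had -0.20 and 0.09 at low signal, against -0.99 and 0.24 in the authors' value table. The cartilage collagens Col2a1 and Col11a2, dim in all 4 channels, lay at -0.06 and -0.04 in AtrxdE2+TMPyP4 and at 0.12 and 0.14 in AtrxdE2.

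Type IV collagen is the network of basement membranes, and its main chains are encoded by Col4a1 and Col4a2, a pair of genes that start back to back. Their promoter windows, chr8:11312777-11313076 on the - strand for Col4a1 and chr8:11312555-11312854 on the + strand for Col4a2, share 78 bases. Col4a2 gave a signal of 195 in AtrxdE2+TMPyP4 and 116 in wild type, and of 371 in AtrxdE2 and 166 in wild type. Its log2 ratio was -0.26 in AtrxdE2+TMPyP4 and 0.42 in AtrxdE2, and the difference of -0.68 (SD of genes nearest in signal 0.28) stayed between -1.02 and -0.64 under every setting run. The wild-type channels of Col4a2 differed by -0.23, in the same direction, and its ratio in AtrxdE2 was past 1.5-fold with median centring (0.62). Over the settings, its ratio in AtrxdE2+TMPyP4 lay between -0.43 and -0.02. Col4a1 was dim, with 26.6 in AtrxdE2+TMPyP4 and 10.9 in wild type, and 31.0 in AtrxdE2 and 16.9 in wild type. It had ratios of 0.03 in AtrxdE2+TMPyP4 and 0.07 in AtrxdE2. The chains that share this start region thus had unlike values, but the Col4a1 probe was close to background. Col4a5 had 0.02 in AtrxdE2+TMPyP4 and 0.09 in AtrxdE2. Col4a6 had 0.01 in AtrxdE2+TMPyP4 and -0.19 in AtrxdE2, and -1.17 in AtrxdE2 in the authors' value table, where its mutant signal of 8.24 was close to the blank spots.

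Type VI collagen is assembled from the chains of Col6a1, Col6a2 and Col6a3. Col6a1 gave a signal of 284 in AtrxdE2+TMPyP4 and 325 in wild type, and on the other array of 915 in AtrxdE2 and 424 in wild type. It was the single gene among the 12 plotted by channel whose mutant signal lay below wild type before normalization. The log2 ratio was -1.13 in AtrxdE2+TMPyP4 (SD of genes nearest in signal 0.23) and 0.42 in AtrxdE2 (0.23). The difference of -1.54 (SD 0.31) lay between -1.83 and -1.41 under all 8 settings, and the wild-type channels differed by -0.15. Col6a1 was past 2-fold lower in AtrxdE2+TMPyP4 over wild type by loess normalization and in the authors' value table (-1.37), but not with median centring, where the ratio was -0.74. In AtrxdE2 median centring put Col6a1 past 1.5-fold higher (0.67).

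Col6a2, which lies beside Col6a1 on chromosome 10, was lower with TMPyP4 by less. Its signal was 56.6 in AtrxdE2+TMPyP4 and 31.1 in wild type, and 147 in AtrxdE2 and 57.9 in wild type. The log2 ratio was -0.10 in AtrxdE2+TMPyP4 and 0.46 in AtrxdE2, and the difference of -0.55 was below 0 in all settings run, and past 1.5-fold with median centring (-0.67), plain subtraction, the Cy3 channels compared directly and in the authors' value table (-0.99). In AtrxdE2, Col6a2 was past 1.5-fold in that table (0.69), with plain subtraction (0.74) and against the mean of both wild-type channels (0.63). The wild-type channels differed by -0.30, in the same direction. Col6a3, dim in all channels, had -0.04 in AtrxdE2+TMPyP4 and -0.06 in AtrxdE2.

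**Figure D2:**
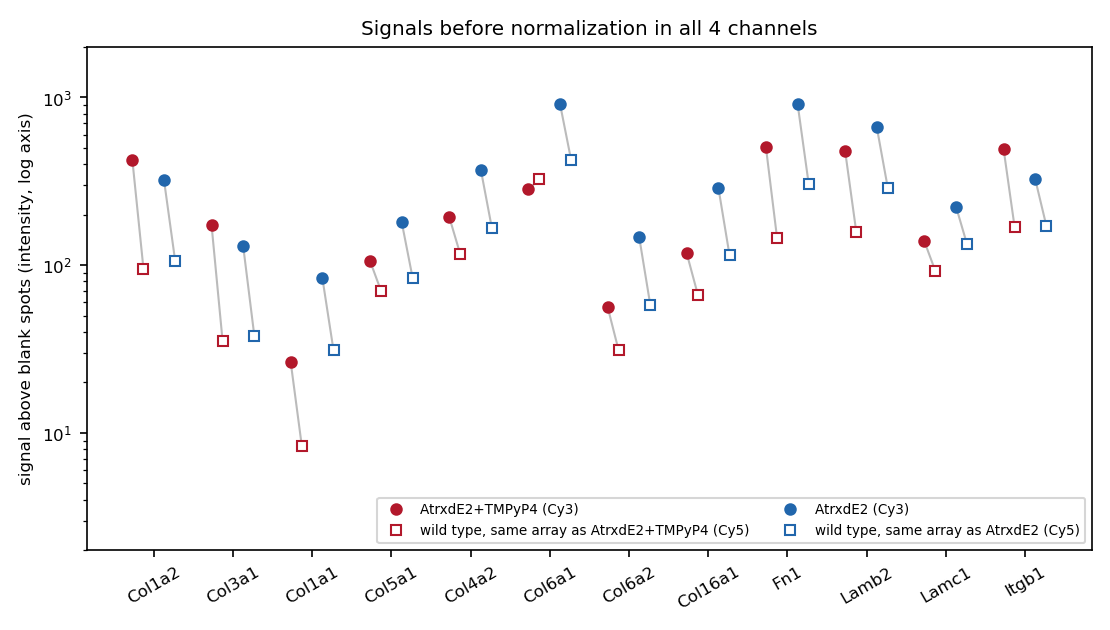
Signal above blank spots before normalization (logarithmic axis) of 12 members in all 4 channels: filled circles are the Cy3 mutant pools, open squares the Cy5 wild type of the same array, red for the AtrxdE2+TMPyP4 array and blue for the AtrxdE2 array. Col6a1 is at 284 in AtrxdE2+TMPyP4, below its wild type at 325, whereas the other 11 genes lie above their wild type. Cy3 was the brighter channel in median on both arrays before normalization.

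Among the 9 fibril-associated collagens the median ratio was 0.02 in both mutant pools, and single genes differed. Col16a1 gave a signal of 118 in AtrxdE2+TMPyP4 and 66.8 in wild type, and of 289 in AtrxdE2 and 115 in wild type. Its log2 ratio was -0.16 in AtrxdE2+TMPyP4 and 0.53 in AtrxdE2, and the difference of -0.69 (SD of genes nearest in signal 0.27) stayed below 0 under all settings, from -1.21 to -0.21. The wild-type channels of Col16a1 differed by -0.36, and the ratio in AtrxdE2+TMPyP4 turned to 0.20 with the local background, where the difference was short of 1.5-fold. In AtrxdE2, Col16a1 was past 1.5-fold by the authors' deposited values (0.68), with median centring or plain subtraction, and against the mean of both wild-type channels (0.74). Col9a2 was at 0.38 in AtrxdE2+TMPyP4 and 0.36 in AtrxdE2, and past 1.5-fold in both pools in the authors' value table, at 0.88 and 0.80. Col9a3, which encodes another chain of type IX, was at 0.39 in AtrxdE2+TMPyP4 and -0.08 in AtrxdE2, the highest difference of any member at 0.48. That difference was 0.03 with the Cy3 channels compared directly, and the wild-type channels of Col9a3 differed by -0.39. The authors' value table (0.65), plain subtraction and the local background put the Col9a3 difference past 1.5-fold, and median centring its ratio in AtrxdE2+TMPyP4 (0.61). Col12a1 had 0.15 in AtrxdE2+TMPyP4 and 0.13 in AtrxdE2, and Col14a1 had -0.15 and -0.03. Col15a1, a basement membrane collagen with 2 probes, had -0.04 and 0.01.

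Transmembrane collagens were dim. Col25a1, a neuronal collagen that is found in amyloid plaques, gave a signal of 13.3 in AtrxdE2+TMPyP4 and 5.65 in wild type, and of 24.4 in AtrxdE2 and 6.11 in wild type. Normalized, this gave a log2 ratio of -0.01 in AtrxdE2+TMPyP4 and 0.23 in AtrxdE2, against 0.07 and 1.34 in the authors' value table, which does not damp dim probes. Col13a1 had 0.08 and -0.05, and Col17a1 0.09 and 0.02. These 3 genes are not ranked.

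Fn1 encodes fibronectin, which binds collagens and integrins. Its signal was 504 in AtrxdE2+TMPyP4 and 146 in wild type, and on the other array 914 in AtrxdE2 and 305 in wild type. The log2 ratio was 0.53 in AtrxdE2+TMPyP4 (SD of genes nearest in signal 0.20) and 0.84 in AtrxdE2 (0.23), the highest of any member in AtrxdE2. Wild type differed between the arrays by -0.68, more than any other member (SD of genes nearest in signal 0.36). Against the mean of both wild-type channels the ratio was 0.14 in AtrxdE2+TMPyP4 and 1.19 in AtrxdE2. The difference between the mutant pools was -0.31 from the ratios, -1.09 with the Cy3 channels compared directly, and 0.31 with the local background. With the local background Fn1 stood at 0.78 in AtrxdE2+TMPyP4 and, short of 1.5-fold, at 0.48 in AtrxdE2. Median centring (0.90), plain subtraction (0.62) and the authors' value table (0.62) also put AtrxdE2+TMPyP4 past 1.5-fold. Fn1 was above wild type in both pools in every setting run, while both the size and the direction of the difference between the pools changed with the processing.

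Laminins are trimers of an alpha, a beta and a gamma chain. Lamb2, the beta chain of vessel and pial basement membranes, gave a signal of 479 in AtrxdE2+TMPyP4 and 159 in wild type, and of 663 in AtrxdE2 and 287 in wild type. Its log2 ratio was 0.37 in AtrxdE2+TMPyP4 and 0.49 in AtrxdE2, with wild-type channels that differed by -0.52. Against the mean of both wild-type channels the ratios were 0.07 in AtrxdE2+TMPyP4 and 0.77 in AtrxdE2, and with median centring Lamb2 was past 1.5-fold in both pools, at 0.74 and 0.73. Its difference was -0.12, and -0.72 with the Cy3 channels compared directly. Lamc1, the gamma chain of most laminins, gave 139 in AtrxdE2+TMPyP4 and 92.1 in wild type, and 224 in AtrxdE2 and 133 in wild type. Its ratio was -0.33 in AtrxdE2+TMPyP4, the lowest among laminins, and 0.10 in AtrxdE2. The difference of -0.42 (SD of genes nearest in signal 0.28) was below 0 in all settings, and past 1.5-fold with the Cy3 channels compared directly, with plain subtraction and by the authors' deposited values (-0.68). The wild-type channels of Lamc1 differed by -0.22, in the same direction. Lama1 had -0.08 in AtrxdE2+TMPyP4 and 0.15 in AtrxdE2, Lama4 0.11 and -0.01, and Lama5 0.01 and 0.13. In the authors' value table the dim gene Lama4 was at 0.83 in AtrxdE2+TMPyP4, past 1.5-fold, and at 0.04 in AtrxdE2, while median centring gave -0.13 in AtrxdE2+TMPyP4. The Lama1 difference was -0.23 by normexp and loess, -0.68 in that table and 0.26 with the Cy3 channels compared directly. Lama1 was below 0 in AtrxdE2 and above 0 in AtrxdE2+TMPyP4 against the mean of both wild-type channels, which differed by 0.42. Lama2, a major laminin of brain vessels, gave a signal of 4.42 in AtrxdE2+TMPyP4, which was not well above background, and 2.79 in wild type, and is given no ratio.

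Integrin subunits were under 1.5-fold over wild type with normexp and loess, and some passed it under other settings. Itgb1, the beta subunit of most laminin and collagen receptors, was the subunit with the highest ratio in AtrxdE2+TMPyP4. It gave a signal of 495 in AtrxdE2+TMPyP4 and 169 in wild type, and of 326 in AtrxdE2 and 172 in wild type. The log2 ratio was 0.34 in AtrxdE2+TMPyP4 and 0.23 in AtrxdE2 (SD of genes nearest in signal 0.23 and 0.22), and the wild-type channels differed by 0.13. With the local background (0.70) and with median centring (0.72) Itgb1 was past 1.5-fold in AtrxdE2+TMPyP4, and the difference of 0.11 between the pools became 0.62 with the local background. Itga6, an alpha subunit of laminin receptors, had 0.03 in AtrxdE2+TMPyP4 and 0.25 in AtrxdE2. Itga8 had 0.15 in AtrxdE2+TMPyP4 and 0.24 in AtrxdE2, where the local background gave -0.33. Itgav, which pairs with several beta subunits, had 0.13 in AtrxdE2+TMPyP4 and -0.13 in AtrxdE2. Itga3 had -0.12 in AtrxdE2+TMPyP4 and 0.03 in AtrxdE2, Itga5, the alpha subunit of the main fibronectin receptor, 0.06 and -0.06, and Itga7 -0.19 and -0.12. The Itga5 difference of 0.12 was 0.70 in the authors' value table and 0.81 with plain subtraction, and -0.02 with median centring.

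Itgam and Itgb2 encode an integrin pair of myeloid cells such as microglia. Itgam had -0.09 in AtrxdE2+TMPyP4 and -0.15 in AtrxdE2, among the 6 lowest members there, and Itgb2 had -0.04 and -0.03. In AtrxdE2, Itgam was at -0.58 in the authors' value table, at -0.60 and past 1.5-fold with plain subtraction, at -0.31 against the mean of both wild-type channels and at -0.02 with the local background. Itgb4, a laminin receptor subunit, had -0.17 in AtrxdE2+TMPyP4 and -0.18 in AtrxdE2, and Itgb3 -0.20 and 0.06. Itgb5 had -0.04 and 0.01.

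The 7 other genes that the pattern caught are not matrix chains. Itgb1bp1, which encodes a protein that binds the tail of Itgb1, had a ratio of -0.08 in AtrxdE2+TMPyP4 and -0.31 in AtrxdE2. Col4a3bp (now Cert1), the ceramide transfer protein gene, had 0.09 and -0.32, and by the authors' deposited values 0.14 and -0.97, past 1.5-fold lower in AtrxdE2. Its difference between the pools was 0.40, against 1.11 by those values and 0.15 with the local background. Itgb4bp (now Eif6), a ribosome assembly factor gene, had 0.14 and -0.19, with 0.63 in AtrxdE2+TMPyP4 under median centring. Itgbl1, a secreted protein gene, had the highest ratio of them in AtrxdE2+TMPyP4, with a signal of 43.4 in AtrxdE2+TMPyP4 and 4.65 in wild type, and of 19.8 in AtrxdE2 and 8.61 in wild type. The ratio was 0.41 in AtrxdE2+TMPyP4 and 0.09 in AtrxdE2, against 2.05 and 0.55 in the authors' value table, where the small wild-type signal gives a larger ratio. Itgb3bp had 0.01 in AtrxdE2+TMPyP4 and -0.14 in AtrxdE2 (a difference of 0.15, and 0.64 in the authors' value table), Itgb1bp2 -0.08 and -0.01 (-0.63 in AtrxdE2+TMPyP4 with plain subtraction), and Itgb1bp3 (now Nmrk2) -0.03 and -0.03.

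**Figure D3:**
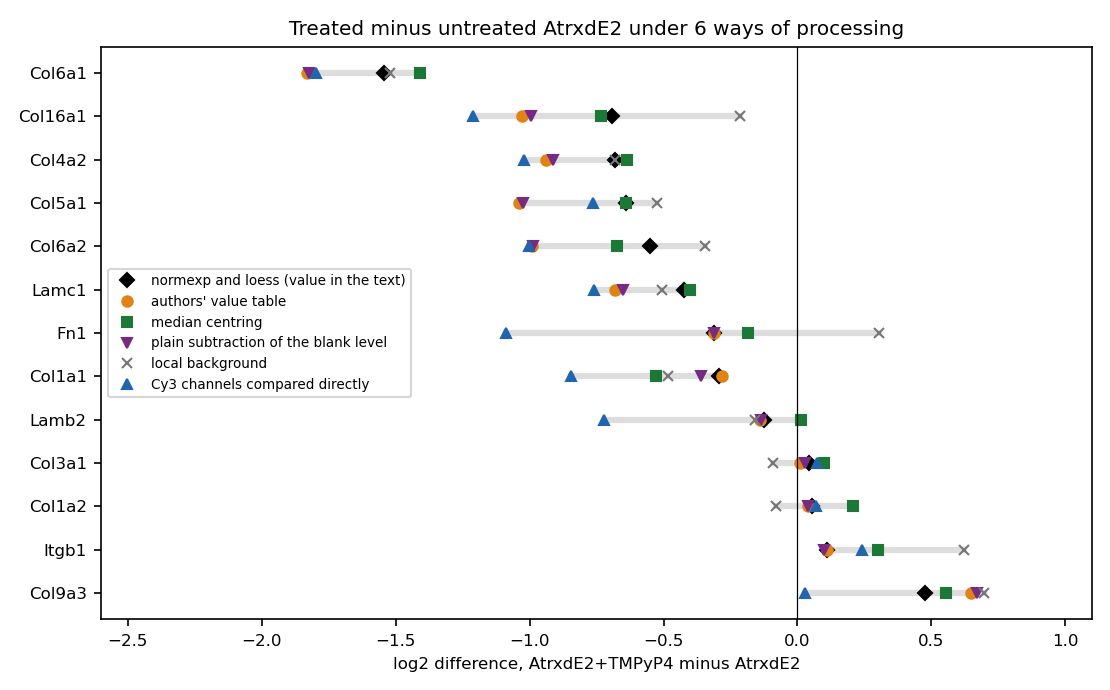
Log2 difference of AtrxdE2+TMPyP4 minus AtrxdE2 (horizontal axis) for 13 members under 6 ways of processing the arrays; the black diamond is normexp and loess. Col6a1 lies between -1.83 and -1.41, and Fn1 spreads from -1.09 to 0.31 and crosses 0.

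Genes for partners of these proteins were mostly near wild type. The 15 measured basement membrane partners had a median of -0.01 in AtrxdE2+TMPyP4 and 0.12 in AtrxdE2, with Pxdn, the peroxidase that cross-links collagen IV, lowest at -0.63 in AtrxdE2+TMPyP4. Of 22 genes of collagen folding and cross-linking, 1 was at least 1.5-fold higher in each mutant pool, Pcolce, whose product speeds cleavage of the procollagen end, with 0.97 in AtrxdE2+TMPyP4 and 0.59 in AtrxdE2. Their median was 0.04 in AtrxdE2+TMPyP4 and 0.07 in AtrxdE2. Of 19 matrix proteoglycans, 3 were at least 1.5-fold higher in AtrxdE2+TMPyP4 and 1 in AtrxdE2, with medians of 0.05 and 0.12. The 3 in AtrxdE2+TMPyP4 were the small proteoglycan gene Ogn at 1.23, Prg4 at 0.95 and Dcn at 0.71. Prg4 was the 1 in AtrxdE2, at 0.59. Of 27 matrix glycoproteins, Spp1 alone was past 1.5-fold in AtrxdE2+TMPyP4, at 1.01, and none in AtrxdE2, with medians of 0.03 and 0.04. The 28 genes of the integrin adhesion complex had none past 1.5-fold over wild type and medians of 0.03 and 0.05. The 20 matrix proteases and their inhibitors had none past 1.5-fold and medians of -0.03 and 0.01. These partner counts are with normexp and loess. In the authors' value table, which damps dim genes less, some of these genes passed 1.5-fold. Timp1 was at 1.79 in AtrxdE2+TMPyP4 and 0.94 in AtrxdE2, and Mfap5 at 1.56 and 0.10. Fbn1 was at -0.10 and 0.80, Thbs4 at -0.87 and -0.40, and Lims1 at 0.04 and -0.81. How many partner genes pass in that table was not counted.

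Most markers of meningeal cells and fibroblasts, which make fibrillar collagen, were above wild type in both mutant pools, and so were Col1a2 and Col3a1. As a class, the 10 measured fibril-forming collagens had a median of -0.05 in AtrxdE2+TMPyP4, with 4 above 0. In AtrxdE2 their median was 0.19, with 9 above 0. The 19 meningeal and fibroblast markers had a median of 0.56 in AtrxdE2+TMPyP4 and 0.29 in AtrxdE2, with 16 and 17 above 0. At least 1.5-fold higher were 8 and 2 of them, against 0.902% and 0.44% of all measured named genes. Their summed normalized level was 5285 in AtrxdE2+TMPyP4 and 3737 in wild type, and 4768 in AtrxdE2 and 3695 in wild type. All 19 were measured, and Mgp and Ogn reached 1.21 and 1.23 in AtrxdE2+TMPyP4 and 1.02 and 0.43 in AtrxdE2. The highest in AtrxdE2+TMPyP4 was Crabp2 (1.25), and the lowest were Pdgfra (-0.27) and Aldh1a2 (-0.15). Dcn, Lum and Ogn of this list are also among the matrix proteoglycans above, and Mfap5 among the matrix glycoproteins. The 10 measured choroid plexus epithelium markers had a median of 1.43 in AtrxdE2+TMPyP4 and 0.02 in AtrxdE2. At least 1.5-fold higher were 9 and 1 of them, against the same shares of all genes. Their summed level was 48331 in AtrxdE2+TMPyP4 and 4176 in wild type, and 4483 in AtrxdE2 and 4036 in wild type. Ttr, at 6.58 in AtrxdE2+TMPyP4 and 1.59 in AtrxdE2, led this list. Cldn2, F5 and Aqp1 did not count as measured, because not all channels lay above background. Their signals were 108, 39.9 and 60.8 in AtrxdE2+TMPyP4, against -1.15, -0.33 and 2.70 in wild type on that array. In AtrxdE2 they were 1.65, 17.05 and 5.08. The part of these cell types in the collagen ratios was not tested.

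Markers of vessel cells were mostly above wild type in AtrxdE2, where none was past 1.5-fold, and 1 of them was past it in AtrxdE2+TMPyP4. Of all measured named genes, 0.44% were at least 1.5-fold higher in AtrxdE2 and 0.902% in AtrxdE2+TMPyP4. The 14 pericyte and smooth muscle markers had medians of 0.03 in AtrxdE2+TMPyP4 and 0.13 in AtrxdE2, with 8 and 13 above 0, and summed levels of 3060 in AtrxdE2+TMPyP4 against 2859 in wild type, and 3480 in AtrxdE2 against 3172 in wild type. Tagln, a smooth muscle gene, was past 1.5-fold in AtrxdE2+TMPyP4, at 0.62, and had 0.57 in AtrxdE2, while Acta2 had 0.05 and 0.39. The 15 endothelial markers had medians of 0.06 and 0.05, 11 above 0 in each, and summed levels of 6950 in AtrxdE2+TMPyP4 against 6748 in wild type, and 7922 in AtrxdE2 against 6899 in wild type. Flt1 had 0.13 in AtrxdE2+TMPyP4 and 0.54 in AtrxdE2. The part of vessel cells in the collagen ratios was not tested. Microglial markers had medians of -0.11 in AtrxdE2+TMPyP4 and -0.06 in AtrxdE2, oligodendrocyte markers -0.35 and -0.49, astrocyte markers 0.11 and -0.04, and hippocampal neuron markers 0.01 and -0.06.

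**Figure D4:**
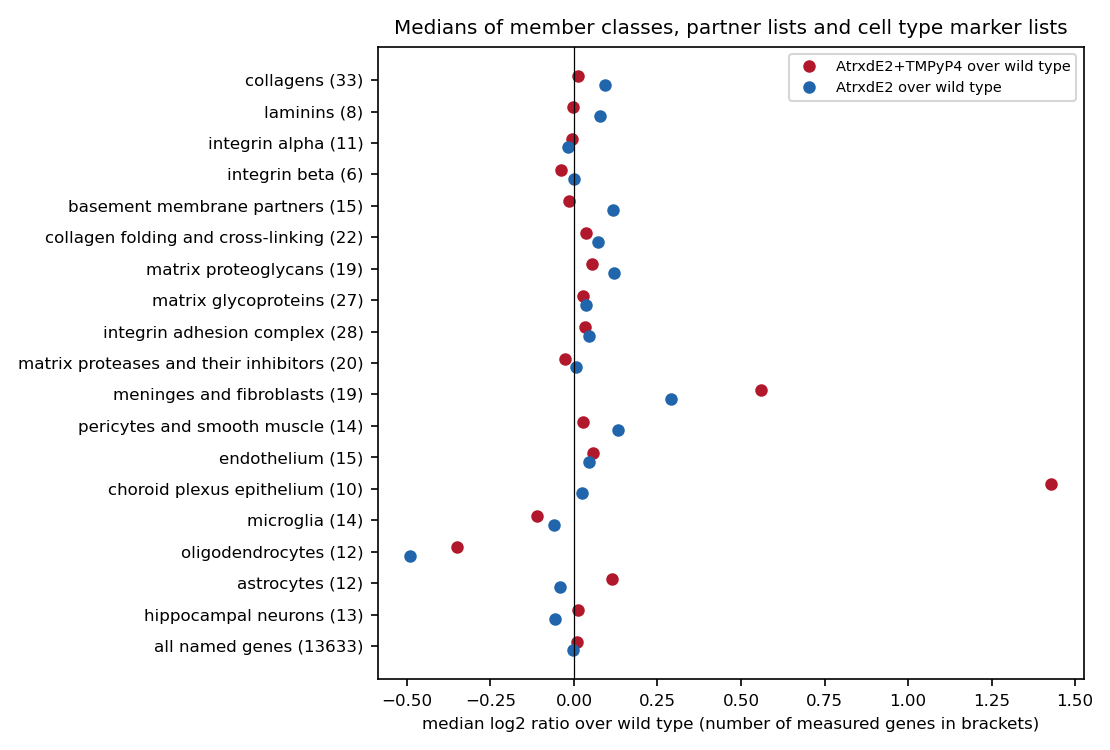
Median log2 ratio over wild type (horizontal axis) of the member classes, 6 partner lists, 8 marker lists and all named genes, with AtrxdE2+TMPyP4 in red above AtrxdE2 in blue. Meningeal markers stand at 0.56 and 0.29 and choroid plexus markers at 1.43 and 0.02, while collagens stand at 0.01 and 0.09.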

How the data were processed

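Two-colour array signals of hippocampal RNA from pools of 5 mice were used, 1 array for AtrxdE2+TMPyP4 and 1 for AtrxdE2, each against wild type. The authors deposited scanner tables with the spot intensity and local background intensity of each channel, as named per the file headers. Their deposited value table gives a normalized log2 ratio per probe, mutant over wild type per the labels. Setting it against the scanner values gave its steps: blank level subtracted, log2 of Cy3 over Cy5 taken, and a constant removed, 1.17 for AtrxdE2+TMPyP4 and 0.65 for AtrxdE2. The match was within 0.01 for 99.99% of values, the column medians are 0.0, and the direction is settled. The scanning software was not given in the sources used here.

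Background was corrected with normexp (limma 3.58.1, R 4.3.3; offset 50), with the blank spots' trimmed mean (0.05 left out at each end) as background, followed by loess within each array, in which control spots had no weight. A probe was measured when both channels of both arrays lay over the blank level by 2 SD. Probes of a gene were averaged. The steps were tested on simulated data with known ratios. Of normexp and loess this test required only the right direction of the median ratios, not their size. An offset of 50 damps ratios of dim probes, so ratios of the authors' value table are given beside some of them. Named genes were the 6 highest and 6 lowest members of each comparison, members past 2-fold, and a list of matrix genes, of which Col8a1, Col18a1, Lamb1 and Itgb8 were not analysed here. The members, lists and settings were chosen with earlier results of these data known. Gene symbols are those of the platform annotation, updated through RefSeq (GRCm38.p6). The alternatives tried were plain subtraction, local background, median centring, the authors' table, filters on signal, the mean of both wild-type channels and the Cy3 channels compared directly.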

Additional observations from a re-analysis of the deposited data

Results flagged for a closer look

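For 4 collagens the mutant pools lay on opposite sides of wild type and at least 1.5-fold apart, with 1 array each, so the difference was not tested. AtrxdE2+TMPyP4 minus AtrxdE2 was -1.54 for Col6a1, -0.69 for Col16a1, -0.68 for Col4a2 and -0.64 for Col5a1. The ratios over wild type in AtrxdE2+TMPyP4 and AtrxdE2 were -1.13 and 0.42 for Col6a1, -0.16 and 0.53 for Col16a1, -0.26 and 0.42 for Col4a2, and -0.29 and 0.35 for Col5a1. In AtrxdE2+TMPyP4 the SD of genes nearest in signal was 0.21 for Col16a1, 0.22 for Col4a2 and 0.23 for Col5a1. The distance of these genes below wild type was thus near that spread. For Col16a1 the ratio in AtrxdE2+TMPyP4 was 0.20 with the local background, so its opposite sides rest on the background step. The ratio of Col4a2 in AtrxdE2+TMPyP4 stayed below 0 in every setting but came as near to wild type as -0.02. The Col5a1 difference with the local background was -0.53, short of 1.5-fold, and that of Col16a1 was -0.21.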

How the results depend on the processing

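Medians that moved by at least 0.1 and counts that moved by over 1.5 times under an alternative are given beside the value reported. For AtrxdE2+TMPyP4 over wild type, the collagen median of 0.01 was -0.12 with median centring and -0.15 with probes above the median signal, the laminin median of -0.0025 was -0.12 with median centring, the integrin alpha median of -0.01 was -0.15 with median centring and -0.19 with bright probes, and the integrin beta median of -0.04 was 0.15 with bright probes. The 2 members at least 1.5-fold higher became 6 with plain subtraction, 7 with median centring, 6 in the authors' table and 1 with bright probes, and the 1 lower became 3 and 2 with plain subtraction and the authors' table. At 2-fold the count of 0 higher was 3, 1 and 2 with plain subtraction, median centring and the authors' table, and the 1 lower was 2 with plain subtraction and 0 with median centring. For AtrxdE2 over wild type, the collagen median of 0.09 was 0.26 with plain subtraction, 0.24 in the authors' table and 0.42 with bright probes, the laminin median of 0.08 was 0.18 and 0.30 in the authors' table and with bright probes, the integrin alpha median of -0.02 was -0.15 with plain subtraction, and the integrin beta median of 0.00 was 0.12 with bright probes. The 3 members at least 1.5-fold higher became 8, 1, 7 and 8 with plain subtraction, local background, median centring and the authors' table, and the 0 lower became 3 and 2 with plain subtraction and the authors' table. At 2-fold the 0 higher became 2, 1 and 2 with plain subtraction, median centring and the authors' table, and the 0 lower became 1 and 1 with plain subtraction and the authors' table. For AtrxdE2+TMPyP4 minus AtrxdE2, the collagen median of -0.07 was -0.20 with plain subtraction and -0.22 in the authors' table, the laminin median of -0.13 was -0.24 and -0.27 in the authors' table and with bright probes, and the integrin alpha median of -0.02 was -0.14 with median centring. The 0 members at least 1.5-fold higher became 7, 2 and 8 with plain subtraction, local background and the authors' table, and the 4 lower became 11, 2 and 11. At 2-fold the 0 higher became 3 and 3 and the 1 lower became 5 and 5 with plain subtraction and the authors' table. Of the log2 values of named genes, 55 moved by at least the SD among genes of similar signal and 74 by less in the authors' table, 54 and 75 with plain subtraction, 41 and 88 with median centring, and 36 and 93 with the local background. No value past 1.5-fold with normexp and loess changed sign. The cause of these moves was not tested. Shares of all genes past 1.5-fold and 2-fold were counted only with normexp and loess and in the authors' table. Member counts under the remaining settings therefore cannot be set against all genes. With median centring the median of all named genes was itself 0.18 on the treated array and 0.07 on the untreated one. The part of that shift in the member counts was not tested. No paired analysis was possible because each group has 1 array. Precision is limited by there being 1 array per group, and dim probes such as those of Col25a1 and Col4a6 depend on the background step.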
